A study of Mus musculus with 12 samples.

Results

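Osteoclast cultures labelled Per2 knockout were compared between the sexes, 3 female libraries against 3 male libraries, across the genes of the autosomes. A gene was a member if it lay outside chromosomes X, Y and MT and had at least 1 FPKM (fragments per kilobase of gene length, scaled to the depth of the library) in at least 3 of the 12 libraries of the study. That rule left 11673 of 55806 genes in the table, of which 10061 code for protein. The cells were monocytes from the bone marrow of mice aged 8 to 12 weeks, treated with M-CSF and RANKL, the cytokines that turn such cells into osteoclasts, and collected after 4 days. The groups were female Per2 knockout, male Per2 knockout, female control and male control, with 3 libraries each, and every group was exposed to the same cytokines. Library names give the knockout as cKO, and the sources used here do not state the mouse strain, the exons removed or the cells that lost Per2. The sample labels name Per2 while the title of the study names PER1, and the sample labels were followed. The sample titles call the 3 libraries of each group biological replicates. The labels tie 1 library of each group to each of 3 batches and do not say whether libraries came from separate mice. The p-values therefore reflect only how far these libraries differ.

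Osteoclasts form when monocyte precursors fuse under RANKL signalling and switch on enzymes that dissolve bone mineral and matrix. RANKL also makes mouse precursors release interferon beta, which signals through its receptor to a large set of antiviral genes and is known to restrain osteoclast formation. Per2 represses the circadian clock together with the cryptochromes. The series title concerns osteoclast formation and inflammatory genes.

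Per2 itself was low in every library. It had 0.258, 0.204 and 0.589 FPKM in female knockouts and 0.466, 0.390 and 0.230 FPKM in male knockouts. The groups overlapped, and the female mean was 0.968 of the male mean (two-sided exact permutation test, p = 0.9, where the smallest possible p is 0.1). Female knockout replicate 3 lay above all 3 female controls, which had 0.331, 0.530 and 0.368 FPKM, so the level of Per2 did not separate the female genotypes, whose genotype rests on the labels. In males it did: the 3 knockouts lay below the 3 controls, which had 0.579, 0.721 and 0.701 FPKM. Xist, the X-inactivation RNA, had 31.4 to 37.4 FPKM in female knockouts and was listed at 0 in male knockouts, while Kdm5d, Ddx3y, Uty and Eif2s3y of the Y chromosome were at 0 in every female library, so sex labels matched. Reads assigned to genes numbered 13888150 to 17762190 per library, apart from male knockout replicate 2 with 41145397. The assigned reads were 1.007 to 1.017 of the denominator behind the deposited FPKM in female knockouts and 1.094 to 1.098 of it in male knockouts, so the scaling differed between the sexes.

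Female and male knockout cultures differed at many autosomal genes, mostly by small amounts, and the large differences ran in 1 direction. Of the 11673 genes, 3913 (33.5%) passed limma's test at an adjusted p under 0.05. These comprised 1520 genes higher in female knockouts (13%) and 2393 lower (20.5%). The median size of a call was 0.28 on the log2 scale for the higher genes and 0.373 for the lower ones. Among calls of at least 2-fold, 7 genes were higher (0.06%) and 214 were lower (1.83%), and 3 and 160 of these code for protein. The female and male knockout libraries did not overlap at 2438 genes that were higher in females (20.9%) and at 3277 that were lower (28.1%). The median log2 difference over all members was −0.017. Each difference here is female minus male on log2(FPKM + 1), which understates the change of weakly expressed genes.

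The balance of higher and lower genes depended on the scaling, while the excess of large falls did not. Lower genes made up 61.2% of calls with FPKM as deposited, 54.4% after median-ratio rescaling (1790 higher, 2138 lower), 43% after quantile normalization (2409 higher, 1817 lower), 33.6% with assigned reads as the denominator (3079 higher, 1556 lower) and 33% with limma voom on the recovered reads (3277 higher, 1617 lower). At those 4 scalings 172 to 260 genes were at least 2-fold lower and 7 to 41 at least 2-fold higher. These scalings moved the median of all genes to between 0.003 and 0.094. Small shifts spread over many genes therefore have no settled direction, and directions below are given only for the FPKM as deposited unless another scaling is named. The share called grew with the level of the gene, at 14.6% of the genes with a mean under 2 FPKM and 56.5% of those at 50 FPKM and over. The share called lower ran between 16.1% on chromosome 12 and 25.8% on chromosome 14. The share at least 2-fold lower ran between 0.932% on chromosome 12 (4 genes) and 4.64% on chromosome 19 (20 genes).

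**Figure D1:**
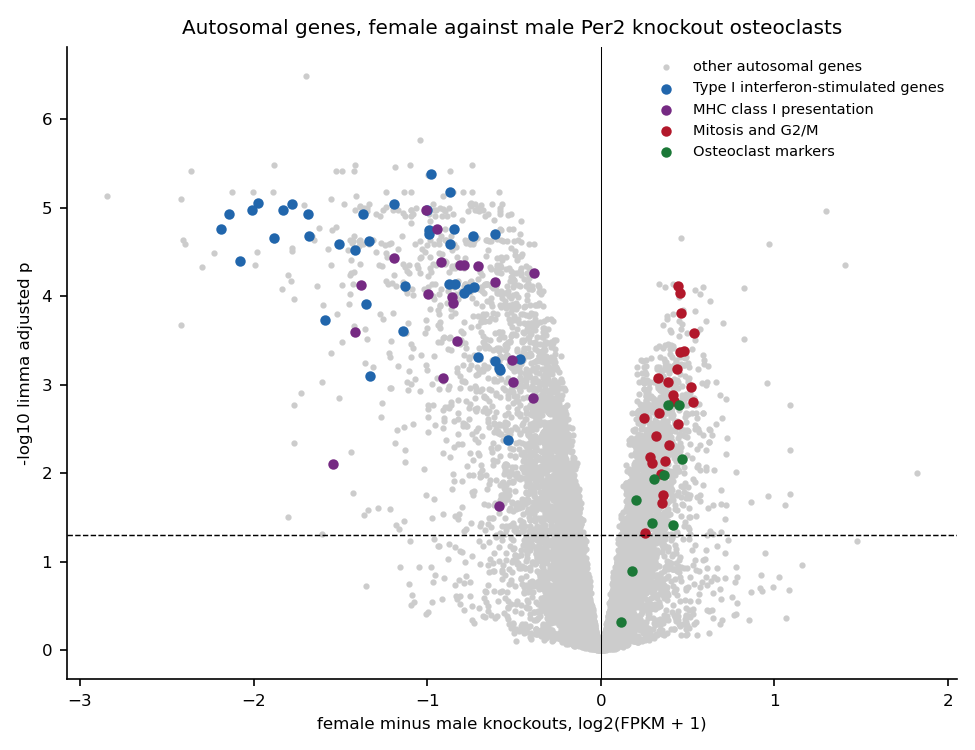
Each point is 1 autosomal gene, with the female minus male knockout difference in log2(FPKM + 1) on the x axis and −log10 of limma's adjusted p on the y axis; the dashed line marks an adjusted p of 0.05. The 40 type I interferon-stimulated genes lie on the left, at −2.19 to −0.47, and the 25 mitosis genes lie on the right, at 0.25 to 0.54.

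The 10 protein-coding genes that fell furthest in female knockouts were Ifit1bl1, Ccl7, Slfn4, Iigp1, Ccl12, Rsad2, Ifit3b, Fgl2, Ifi205 and Ifit2. They include members of the IFIT, Schlafen and immunity-related GTPase families, all known as interferon-induced, and chemokines that attract monocytes. For 8 of these 10 genes the promoter table of RefSeq (build GRCm38.p6) holds a window of 250 bases before to 50 bases after the start of the transcript. Windows of Ifit1bl1, Slfn4, Ccl12 and Rsad2 are shown because these genes are the first 4 with an entry by size of fall. The Ifit1bl1 window is chr19:34599378-34599677 on the minus strand, 1 of 2 listed for the gene. The Slfn4 window is chr11:83174936-83175235 on the plus strand. The Ccl12 window is chr11:82101595-82101894 on the plus strand, and the Rsad2 window is chr12:26456403-26456702 on the minus strand. Capitals mark any of 10 words of 8 letters, on either strand, whose choice is given after the sequences.
Ifit1bl1: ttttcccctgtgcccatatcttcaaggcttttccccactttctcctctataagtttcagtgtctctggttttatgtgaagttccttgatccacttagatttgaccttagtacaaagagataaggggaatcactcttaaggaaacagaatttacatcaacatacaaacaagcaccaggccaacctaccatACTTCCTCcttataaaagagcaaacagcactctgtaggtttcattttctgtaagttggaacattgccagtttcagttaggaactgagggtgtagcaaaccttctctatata
Slfn4: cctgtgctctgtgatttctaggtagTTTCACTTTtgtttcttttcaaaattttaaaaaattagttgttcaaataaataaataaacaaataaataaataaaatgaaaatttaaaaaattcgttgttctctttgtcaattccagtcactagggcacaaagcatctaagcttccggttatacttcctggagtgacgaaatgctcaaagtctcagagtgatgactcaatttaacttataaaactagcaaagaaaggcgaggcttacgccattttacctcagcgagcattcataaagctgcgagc
Ccl12: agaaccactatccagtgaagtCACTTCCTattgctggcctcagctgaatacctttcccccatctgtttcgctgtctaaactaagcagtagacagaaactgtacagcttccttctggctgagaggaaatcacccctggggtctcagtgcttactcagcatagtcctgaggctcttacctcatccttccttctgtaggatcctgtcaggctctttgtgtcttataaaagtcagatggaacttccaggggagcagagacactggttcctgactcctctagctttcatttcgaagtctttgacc
Rsad2: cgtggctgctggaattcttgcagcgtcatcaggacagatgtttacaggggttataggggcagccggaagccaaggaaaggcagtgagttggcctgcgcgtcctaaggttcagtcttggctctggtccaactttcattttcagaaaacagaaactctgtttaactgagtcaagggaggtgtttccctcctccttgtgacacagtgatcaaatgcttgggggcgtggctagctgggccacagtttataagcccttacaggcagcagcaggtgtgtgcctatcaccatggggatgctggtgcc

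The 10 words were taken from these data. For every word of 8 letters, read on both strands, the share of genes with the word in any of their windows was set for genes called lower in female knockouts against genes not called, and the 10 words with the largest excess were kept. Because they were chosen for that excess, their shares are a description with no test. Windows were found for 1773 genes called lower, 1162 called higher and 5190 not called, or 80.1% to 81.1% of the protein-coding genes in each set. The first word, CTCCTCCC, occurred in 16.2% of genes called lower and 12.2% of genes not called. The second, CCCCACCC, occurred in 16.7% of genes called lower and 13.0% of genes not called. These 2 words are rich in C and common in all sets. The fourth word, AAGTGAAA, occurred in 4.34% of genes called lower, 0.775% of those called higher and 1.18% of those not called, against 1.91% of the 27025 genes of the whole promoter table. The tenth, AAAGTGAA, overlaps it and occurred in 3.78% of genes called lower and 1.27% of those not called. Of the 8 furthest falls with a window, 5 held at least 1 of the 10 words, as did 57.1% of all genes called lower, 45.0% of those not called and 40.7% of the whole table. In the printed windows, Slfn4 holds the overlapping pair AAGTGAAA and AAAGTGAA on the other strand, with first bases at −225 and −224 relative to the start. Ifit1bl1 holds ACTTCCTC at −61, Ccl12 holds AGGAAGTG on the other strand at −229, and Rsad2 holds none of the 10. A match describes these letters only and names no factor.

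Type I interferon-stimulated genes, the antiviral genes downstream of interferon alpha and beta, were lower in female knockouts throughout. All 40 listed genes were called lower and 21 of them were at least 2-fold lower, with a median log2 difference of −1.06 against −0.017 over all genes. Rsad2, which encodes the antiviral enzyme viperin, had 69.2, 55.3 and 89.1 FPKM in female knockouts and 310, 316 and 342 FPKM in male knockouts. Its log2 difference was −2.19 ± 0.19 (SE, n = 3 libraries a sex, limma adjusted p = 1.75e-05). Isg15, a ubiquitin-like modifier, had 372, 311 and 464 FPKM in female knockouts and 941, 932 and 978 FPKM in male knockouts, a log2 difference of −1.33 ± 0.21 (adjusted p = 0.000797). Every female knockout library lay below every male one for all 40 members, and for 28.1% of all genes. All 40 were also called lower under each of the 17 alternative settings.

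Ifit1bl1, a member of the IFIT family, had the largest fall among the named genes. It had 28.6, 19.6 and 33.8 FPKM in female knockouts and 190, 189 and 213 FPKM in male knockouts, and the log2 difference was −2.84 ± 0.20 (adjusted p = 7.46e-06). Ifit2 had 125, 93.3 and 148 FPKM in female knockouts and 469, 484 and 501 FPKM in male knockouts (log2 −2.01 ± 0.16, adjusted p = 1.06e-05). Ifit3b fell by 2.14 and Ifi205, an interferon-inducible gene of the Ifi200 family, fell by 2.08 on the log2 scale. Both families hold near-identical copies, so the split of reads between their members is uncertain. Slfn4, of the Schlafen family, had 58.4, 45.6 and 83.2 FPKM in female knockouts and 343, 303 and 325 FPKM in male knockouts, and Fgl2, a secreted fibrinogen-like immune regulator, had 34.6, 29.5 and 45.8 FPKM in female knockouts and 147, 151 and 187 FPKM in male knockouts. Their log2 differences were −2.40 ± 0.23 and −2.13 ± 0.14 (adjusted p = 2.59e-05 and 6.67e-06). Non-overlap of the sexes was a condition for naming these genes among the furthest falls, so it is not a separate result.

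Most genes that carry the interferon signal were lower as well. Ifnb1, which encodes interferon beta, had 0.699, 0.532 and 0.530 FPKM in female knockouts and 2.37, 4.15 and 3.16 FPKM in male knockouts (log2 −1.39 ± 0.13, adjusted p = 2.69e-05). These values rest on 9, 6 and 6 reads in female knockouts and 28, 117 and 37 reads in male knockouts, and female controls had 0 reads. Ifnb1 therefore passed the filter only through male libraries, and its female level was near the floor. Irf7, the factor that amplifies interferon transcription, had 283, 246 and 339 FPKM in female knockouts and 657, 580 and 648 FPKM in male knockouts (log2 −1.13 ± 0.13, adjusted p = 7.76e-05). Of 22 ligands, receptors and proximal signalling genes, 15 were lower and 1 was higher, with a median of −0.44. The 15 include Tlr3, a sensor of double-stranded RNA (log2 −1.22), Socs1, a feedback inhibitor of JAK kinases (−0.84), and Irf2 (−0.48). Mavs, the mitochondrial adaptor of RNA sensing, was the higher one, at 0.18. Ifngr1 (−0.02, adjusted p = 0.86) and Irf3 (−0.04, adjusted p = 0.607) were not called.

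**Figure D2:**
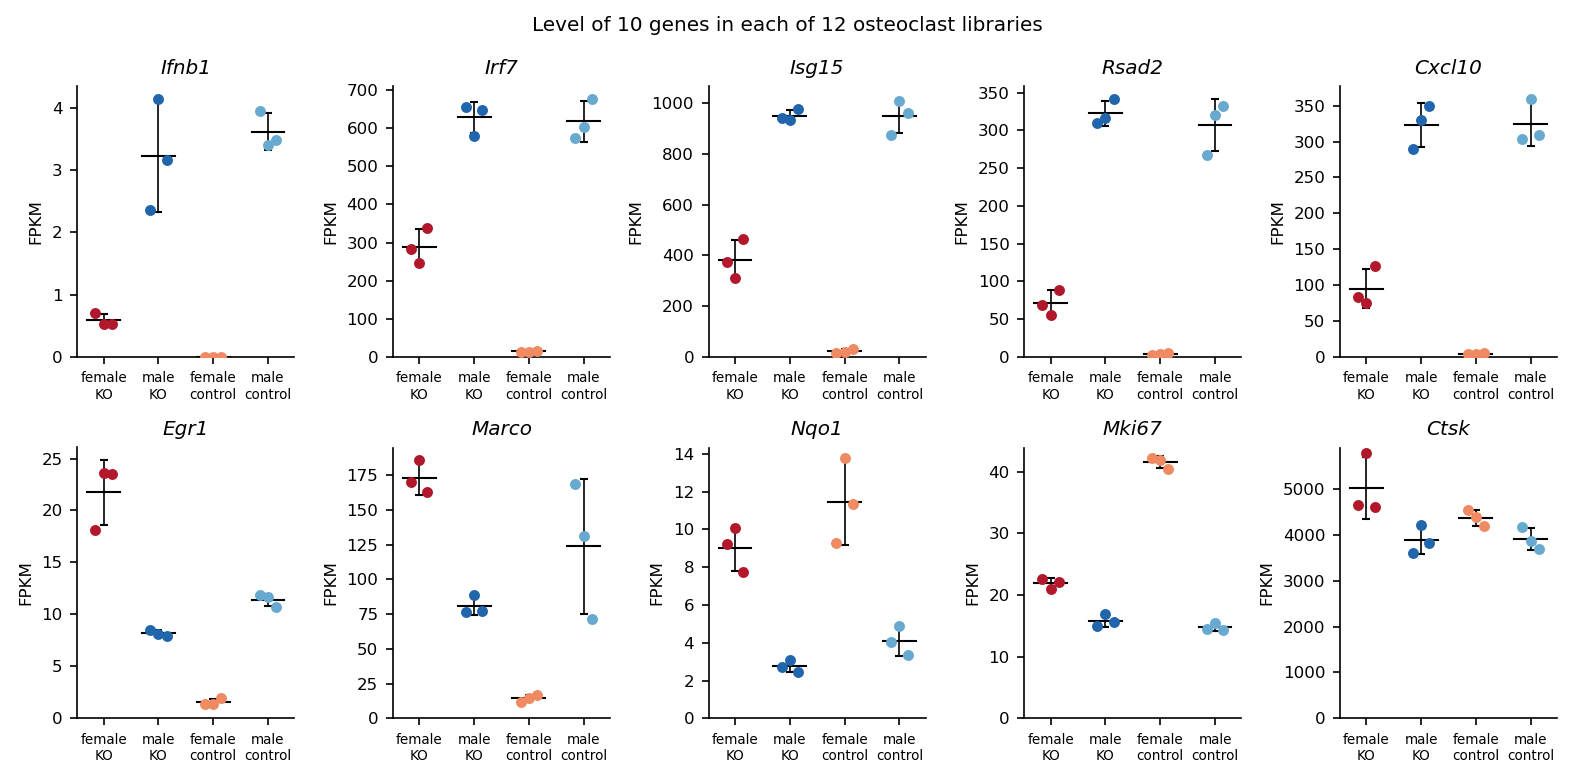
Points are the FPKM of 10 genes in each of the 12 libraries, grouped as female knockout, male knockout, female control and male control, with horizontal bars for means and error bars for SD (n = 3). Ifnb1, Irf7, Isg15, Rsad2 and Cxcl10 were lower in the 3 female than in the 3 male knockouts, while Egr1, Marco, Nqo1, Mki67 and Ctsk were higher.

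The interferon-gamma-inducible GTPases, which attack the vacuoles of intracellular pathogens, were all lower in female knockouts. All 15 were called lower and 11 were at least 2-fold lower, with a median of −1.39. Iigp1 had 6.37, 5.08 and 8.29 FPKM in female knockouts and 35.5, 34.4 and 42.4 FPKM in male knockouts (log2 −2.36 ± 0.14, adjusted p = 3.88e-06). Gbp4, a guanylate-binding protein, had 2.04, 1.76 and 2.49 FPKM in female knockouts and 8.12, 7.31 and 8.20 FPKM in male knockouts (log2 −1.52 ± 0.094, adjusted p = 3.88e-06). Gbp7 and Tgtp1 had log2 differences of −1.10 and −1.98, and Tgtp1 shares reads with the near-identical Tgtp2.

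MHC class I presentation, by which cells display internal peptides to T cells, was lower across its parts. All 21 listed genes were called lower, with a median of −0.85, and their summed level was 6063 to 6830 FPKM in female knockouts and 10960 to 11950 FPKM in male knockouts. Nlrc5, the transactivator of class I genes, had 11.7, 11.2 and 13.4 FPKM in female knockouts and 27.3, 23.7 and 24.9 FPKM in male knockouts (log2 −1.01 ± 0.079, adjusted p = 1.06e-05). The nonclassical class I genes H2-T23 and H2-T24 had differences of −0.94 and −0.92, and the peptide transporter gene Tap1 and B2m, the shared light chain, −0.86 and −0.81. The H2 genes are similar in sequence, and the split of reads between them is uncertain.

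MHC class II genes present outside antigens to helper T cells. Among 13 listed genes 3 were lower and 10 were not called, a share near the 20.5% of all genes, with a median of −0.19. Fitted on the 6 knockout libraries alone, 6 were lower. The 3 calls were the costimulators Cd86 (log2 −1.28) and Cd40 (−1.08) and the class II chain H2-Aa (−0.40). Ciita, the class II transactivator, was at −0.14 (adjusted p = 0.365) and the invariant chain Cd74 at −0.19 (adjusted p = 0.102).

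Chemokines and cytokines were lower in female knockouts, with exceptions. Of 34 listed genes 24 were lower, 0 were higher and 10 were not called (median −0.75, with 15 at least 2-fold lower). Ccl7, which attracts monocytes, had 13.2, 14.5 and 33.1 FPKM in female knockouts and 88.5, 99.4 and 127 FPKM in male knockouts (log2 −2.42 ± 0.31, adjusted p = 0.000211). Ccl12 had 15.1, 14.4 and 28.6 FPKM in female knockouts and 79.3, 91.4 and 116 FPKM in male knockouts (log2 −2.30 ± 0.24, adjusted p = 4.71e-05). In both genes replicate 3 was the highest library of each sex. Cxcl10, an interferon-induced attractant of T cells, had 83.5, 75.1 and 127 FPKM in female knockouts and 289, 330 and 350 FPKM in male knockouts (log2 −1.79 ± 0.20, adjusted p = 6.78e-05). Ccl5 and Nos2, the inducible nitric oxide synthase, were at −1.09 and −1.44, Il15 at −1.14 and the interleukin-1 receptor antagonist Il1rn at −1.17. Values for Il1a (−0.25, adjusted p = 0.215), Ptgs2 (−0.05, adjusted p = 0.788) and Cxcl2 (0.35, adjusted p = 0.207) did not pass the test.

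Complement and Fc receptor genes, which tag and take up opsonised particles, were mostly lower. Of 16 listed genes 14 were lower and 1 was higher (median −0.66). Fcgr4 and Fcgr1, activating receptors for immunoglobulin G, had log2 differences of −1.62 and −1.55, with 132, 115 and 158 FPKM of Fcgr1 in female knockouts and 406, 368 and 409 FPKM in male knockouts. The complement receptor C3ar1 and the C1q chain C1qb were at −1.06 and −0.79.

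NF-kB feedback genes and targets split in the same direction with smaller sizes, at 16 lower and 3 higher of 24 (median −0.26). Bcl2a1d, an inhibitor of cell death with near-identical copies, was at −1.12, Cflar, an inhibitor of caspase 8, at −0.75, and the subunit Rel at −0.50. Malt1, the paracaspase that activates NF-kB, was higher, with 6.59, 6.78 and 6.37 FPKM in female knockouts and 5.26, 5.26 and 4.77 FPKM in male knockouts (log2 0.31 ± 0.051, adjusted p = 0.000919). Higher calls numbered 5 with quantile normalization and 1 without female knockout replicate 2.

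Monocyte and macrophage markers were lower as a group, at 15 lower and 2 higher of 24 (median −0.48). Adgre1, which encodes F4/80, had 302, 276 and 335 FPKM in female knockouts and 388, 427 and 446 FPKM in male knockouts (log2 −0.47 ± 0.073, adjusted p = 0.000724). The transcription factor Maf (−0.90), Mertk, a receptor for dying cells (−0.71), and Msr1, a scavenger receptor (−0.52), were lower too. Csf1r, the M-CSF receptor, was higher at 0.18, and Cx3cr1 was not called (−0.26, adjusted p = 0.107). In bulk libraries fewer cells of a type and less RNA per cell cannot be told apart. LXR targets and lipid uptake genes had 11 lower and 1 higher of 16, among them the lipid droplet protein Plin2 (−1.01), the receptor Nr1h3 (−0.69), Pparg (−0.83) and the fatty acid transporter Cd36 (−0.66).

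Marco, a scavenger receptor of macrophages, ran against its group. It had 170, 186 and 163 FPKM in female knockouts and 76.7, 88.8 and 77.2 FPKM in male knockouts (log2 1.09 ± 0.24, adjusted p = 0.00546). Marco, Egr1 and Nqo1 were the 3 protein-coding genes called at least 2-fold higher. The remaining 4 of the 7 were small nucleolar RNA genes or a pseudogene.

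Egr1, an immediate early transcription factor induced within minutes of growth factor signalling, had 18.1, 23.6 and 23.5 FPKM in female knockouts and 8.53, 8.09 and 7.92 FPKM in male knockouts. Its log2 difference was 1.30 ± 0.10 (adjusted p = 1.1e-05). Ier2, another immediate early gene, had 60.7, 68.6 and 68.2 FPKM in female knockouts and 42.3, 41.2 and 45.4 FPKM in male knockouts (log2 0.60 ± 0.077, adjusted p = 0.000192). The list of 22 immediate early genes had 3 higher, 6 lower and a median of 0.08, near the 13% higher and 20.5% lower of all genes. Fos was the third higher gene at 0.37, while Atf3 (−0.92) and Klf6 (−0.48) were lower. Higher calls in this list numbered 5 with the batch as a block, 7 with assigned reads as the denominator and 10 with voom, and lower calls numbered 3 without female knockout replicate 1, 3 with assigned reads and 3 with no filter on low values.

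Nqo1, a quinone reductase controlled by the oxidative stress factor NRF2, had 9.22, 10.1 and 7.73 FPKM in female knockouts and 2.74, 3.08 and 2.48 FPKM in male knockouts (log2 1.41 ± 0.14, adjusted p = 4.49e-05). Of 27 NRF2 and oxidative stress genes 10 were higher and 2 lower (median 0.15), and 16 were higher with quantile normalization. Gclm, a subunit of the enzyme that starts glutathione synthesis, had 15.3, 15.5 and 15.4 FPKM in female knockouts and 9.93, 10.4 and 9.83 FPKM in male knockouts (log2 0.57 ± 0.066, adjusted p = 9.34e-05). Catalase, Cat, was at 0.48, Gsta3, a glutathione transferase, at 0.72 and the carbonyl reductase Cbr3 at 0.72. Keap1, the inhibitor of NRF2, was lower at −0.55. Hmox1 did not pass the test (−0.11, adjusted p = 0.384).

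The other protein-coding genes with the largest rises were Serinc2, Ifi27, Ccn1 and Bdh1. Serinc2, a transmembrane protein of the serine incorporator family, had 3.74, 4.21 and 3.37 FPKM in female knockouts and 1.29, 1.41 and 1.60 FPKM in male knockouts (log2 0.97 ± 0.091, adjusted p = 2.55e-05). Ifi27, which is named for its interferon induction, had 45.4, 49.8 and 37.1 FPKM in female knockouts and 23.9, 27.5 and 21.8 FPKM in male knockouts (log2 0.83 ± 0.11, adjusted p = 0.000303), while its relative Ifi27l2a was lower at −1.59. Ccn1, a matricellular protein, was weakly expressed at 1.56, 2.60 and 1.97 FPKM in female knockouts and 1.01, 0.869 and 0.444 FPKM in male knockouts (log2 0.78 ± 0.19, adjusted p = 0.00957). Bdh1, a ketone body enzyme, was at 0.73 ± 0.15 (adjusted p = 0.00399).

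Genes of the mature osteoclast were modestly higher in female knockouts. Of the 10 osteoclast markers 8 were higher and 0 lower, with a median of 0.34. All 10 were detected and their summed level was 10480 to 12810 FPKM in female knockouts and 8304 to 9306 FPKM in male knockouts. Ctsk, the protease that cleaves bone collagen, had 4645, 5798 and 4606 FPKM in female knockouts and 3616, 4210 and 3817 FPKM in male knockouts (log2 0.36 ± 0.091, adjusted p = 0.0104). Acp5, tartrate-resistant acid phosphatase, had 2395, 2799 and 2334 FPKM in female knockouts and 1988, 2132 and 1949 FPKM in male knockouts (log2 0.31 ± 0.078, adjusted p = 0.0117). Female knockout replicate 2 was the highest library for both. Mmp9, a gelatinase, was at 0.45 and Nfatc1, the master transcription factor of osteoclasts, at 0.39, while the fusion gene Ocstamp (0.18, adjusted p = 0.126) and the calcitonin receptor Calcr (0.12, adjusted p = 0.477) were not called. Of the 10 markers 5 were called without female knockout replicate 2, 5 without male knockout replicate 3 and 3 in a fit that kept every gene however low.

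Bone resorption genes gave 16 higher and 2 lower of 28 (median 0.23). Rufy4, a regulator of lysosome positioning, had 25.9, 30.3 and 25.7 FPKM in female knockouts and 17.2, 18.9 and 18.7 FPKM in male knockouts (log2 0.55 ± 0.10, adjusted p = 0.00211), and Car2, the carbonic anhydrase that supplies protons, was at 0.47. The proton pump subunit Atp6v0d2 was at 0.46, while the pump subunit Tcirg1 (0.07, adjusted p = 0.324) and the chloride channel Clcn7 (−0.03, adjusted p = 0.729) were not called. The 2 lower genes were the lysosomal proteases Ctsb (−0.46) and Ctsz (−0.20), and Ctsz was at 0.00 with quantile normalization (adjusted p = 0.969). The call of Ctsz was also lost with assigned reads as the denominator (adjusted p = 0.0844), with voom (adjusted p = 0.0872) and with no filter on low values (adjusted p = 0.0592). Higher calls numbered 8 with no filter on low values and 10 without female knockout replicate 2 or without male knockout replicate 3.

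Osteoclast differentiation and fusion genes were divided, at 11 higher and 8 lower of 32 (median 0.08). Higher members included Dcstamp, which cells need to fuse (0.41), Prdm1, a repressor of anti-osteoclast factors (0.43), and Oscar, a collagen receptor (0.29). Lower members included Cd47 (−0.65), the receptor Trem2 (−0.58), the metalloprotease Adam8 (−0.55) and the signalling adaptor Fcer1g (−0.51). Higher calls numbered 6 without female knockout replicate 2, 7 without male knockout replicate 3 and 7 with no filter. Repressors of osteoclast formation had 16 lower and 3 higher of 26 (median −0.24). Lilrb4a, an inhibitory receptor, had 31.7, 31.0 and 37.7 FPKM in female knockouts and 65.6, 64.0 and 66.0 FPKM in male knockouts (log2 −0.95 ± 0.075, adjusted p = 1.06e-05), and the transcriptional repressor Bcl6 was at −0.75. None of the 3 higher calls was kept without female knockout replicate 2, where the count was 0. Irf8, a factor that holds precursors in the macrophage fate, was at −0.60.

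Factors that osteoclasts send to bone-forming cells had 3 higher and 5 lower of 17, against 13% and 20.5% of all genes (median −0.04, and 0.13 with quantile normalization). Pdgfb had 49.4, 55.7 and 50.7 FPKM in female knockouts and 43.4, 41.2 and 43.2 FPKM in male knockouts (log2 0.28 ± 0.058, adjusted p = 0.00382), and Pdgfa was at 0.35, whereas the chemokine Cxcl16 was at −0.69. Higher calls numbered 7 and lower calls 3 with assigned reads as the denominator. Lysosomal hydrolases and membrane proteins were lower, at 18 lower and 2 higher of 33 (median −0.19), led by the cathepsins Ctss (−0.93) and Ctsc (−0.90), with progranulin, Grn, at −0.48 and the cholesterol carrier Npc2 at −0.41. With assigned reads as the denominator 7 were higher.

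**Figure D3:**
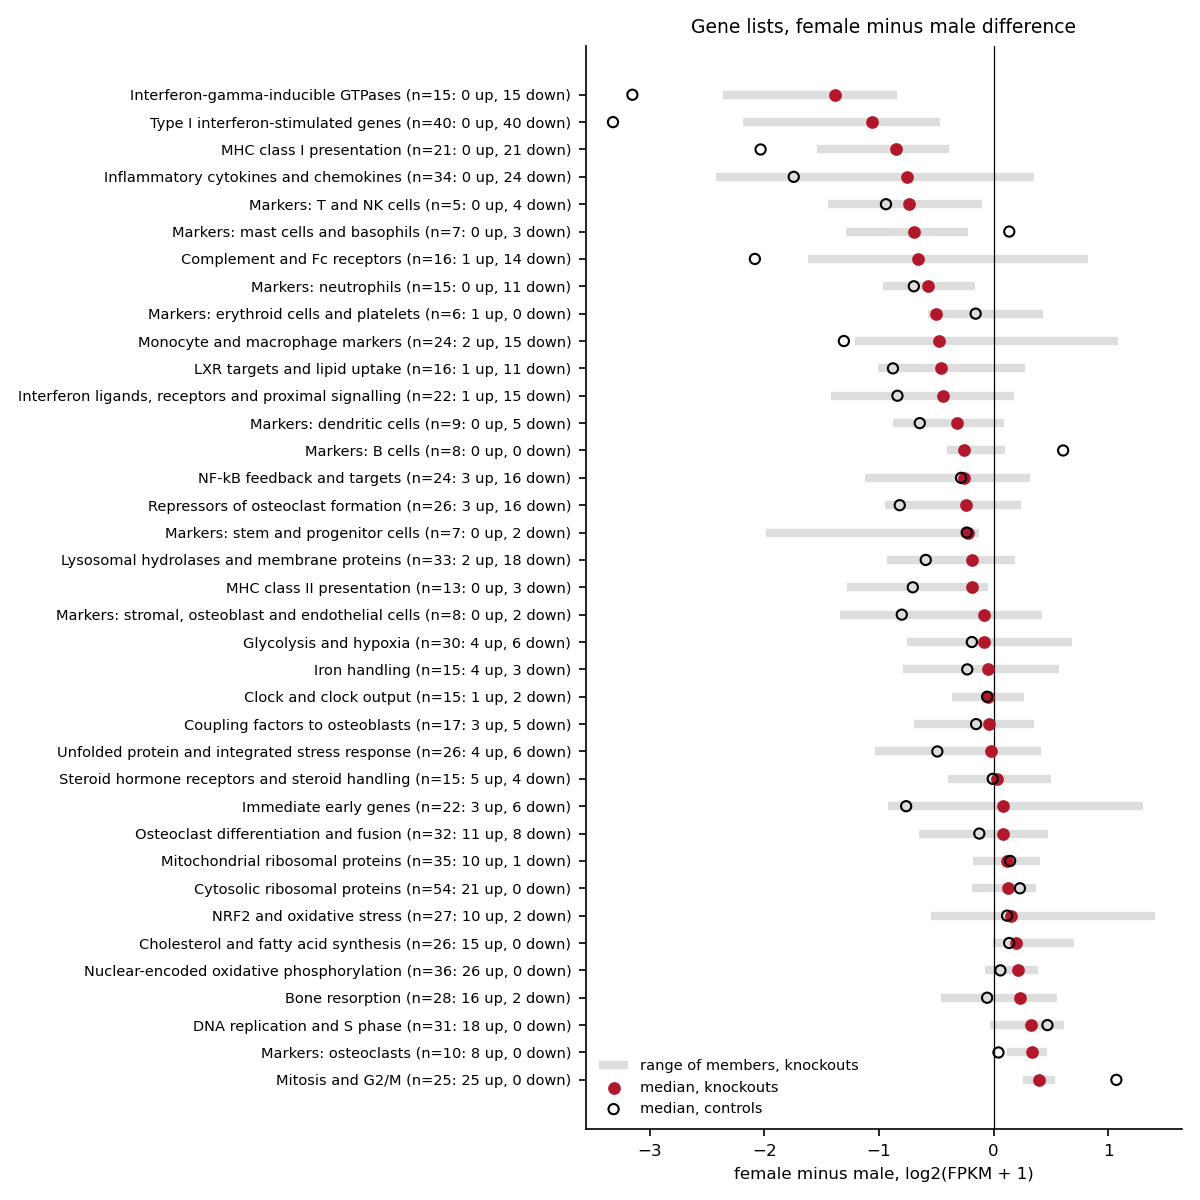
Rows are 37 gene lists, with the number of tested members and of knockout calls in brackets. Filled red points are medians of female minus male log2(FPKM + 1) in knockouts, grey bars their full range and open circles the medians in controls. The interferon lists sit at the top, with medians of −1.39 and −1.06 in knockouts and −3.15 and −3.32 in controls.

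Genes of dividing cells were higher in female knockouts. All 25 mitosis and G2/M genes were called higher, with a median of 0.39, and their summed level was 312 to 342 FPKM in female knockouts and 225 to 257 FPKM in male knockouts. Mki67, the nuclear antigen Ki-67, had 22.6, 20.9 and 22.2 FPKM in female knockouts and 15.03, 16.9 and 15.6 FPKM in male knockouts (log2 0.44 ± 0.050, adjusted p = 7.77e-05). Bub1, a spindle checkpoint kinase, was at 0.54 and Birc5, survivin, at 0.46. Of 31 DNA replication and S phase genes 18 were higher and 0 lower (median 0.32), among them the ribonucleotide reductase subunit Rrm2 (0.54), the cell cycle factor E2f1 (0.43) and the helicase subunit Mcm7 (0.39). Pcna was at −0.03 (adjusted p = 0.658). Mitosis calls stayed at 22 to 25 and S phase calls at 15 to 26 over the 17 alternative settings.

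Synthesis and respiration genes shifted upward by small amounts. Of 36 nuclear genes for oxidative phosphorylation 26 were higher and 0 lower (median 0.21), with Ndufb10 of complex I at 0.38, Atp5d of the ATP synthase at 0.37 and Uqcrc1 of complex III at 0.32, and 17 were higher without male knockout replicate 1. Cholesterol and fatty acid synthesis genes had 15 higher and 0 lower of 26 (median 0.19, and 9 higher without female knockout replicate 2), including Insig1, a sensor of sterols (0.47), and Fasn, fatty acid synthase (0.37). Cytosolic ribosomal proteins had 21 higher and 0 lower of 54 (median 0.12), and mitochondrial ribosomal proteins 10 higher and 1 lower of 35 (median 0.12). With assigned reads as the denominator these counts were 41 and 23 higher, and with the mitochondrial list 4 were higher without female knockout replicate 2 or without male knockout replicate 1 and 6 without female knockout replicate 3.

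Glycolysis and hypoxia genes had 4 higher and 6 lower of 30, about the shares of all genes (13% higher, 20.5% lower), with a median of −0.08, and of 0.03 with assigned reads, where 7 were higher. Higher calls numbered 8 with quantile normalization. Hk3, the myeloid hexokinase, was at −0.76, Pfkfb3, an activator of glycolysis, at −0.64 and Hif1a, the oxygen-sensing factor, at −0.52, while the pyruvate dehydrogenase kinase Pdk1 was at 0.43. Genes of the unfolded protein and integrated stress responses had 4 higher and 6 lower of 26, also close to the 13% and 20.5% of all genes (median −0.025, and 0.09 with assigned reads). Ddit3, the stress factor CHOP, had 9.28, 8.26 and 9.71 FPKM in female knockouts and 19.5, 17.9 and 21.5 FPKM in male knockouts (log2 −1.03 ± 0.099, adjusted p = 2.93e-05), and Shmt2, a mitochondrial folate enzyme, was at 0.42. Lower calls in that list numbered 2 without female knockout replicate 2, 2 without male knockout replicate 2 and 3 without female knockout replicate 1, and higher calls 2 without male knockout replicate 3. Iron handling genes had 4 higher and 3 lower of 15, against 13% and 20.5% of all genes (median −0.05, and 0.05 with assigned reads), with the ferrireductase Steap4 at 0.57, ceruloplasmin, Cp, at −0.79 and the metal transporter Slc11a1 at −0.41. Transferrin, Trf, was at −0.19 (adjusted p = 0.039) and was not called under any of the 4 other scalings. Higher calls in the iron list numbered 2 without female knockout replicate 2, without male knockout replicate 1 or without male knockout replicate 3.

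Clock genes differed by small amounts, at −0.36 to 0.26. Of 15 that passed the filter 1 was higher and 2 lower, against 13% and 20.5% of all genes (median −0.05, and 0.00 with quantile normalization). Per1, the relative of Per2 named in the study title, had 3.35, 3.56 and 3.92 FPKM in female knockouts and 5.58, 4.37 and 4.88 FPKM in male knockouts (log2 −0.36 ± 0.096, adjusted p = 0.0143). The call was lost without female knockout replicate 1 (adjusted p = 0.0518) and without male knockout replicate 1 (adjusted p = 0.0616). Bhlhe40, a clock-linked repressor, was at 0.26. Cry1 (−0.08, adjusted p = 0.438), Cry2 (−0.05, adjusted p = 0.753), Arntl (−0.12, adjusted p = 0.34), Clock (0.06, adjusted p = 0.465), Nr1d1 (0.21, adjusted p = 0.143) and Dbp (0.11, adjusted p = 0.379) were not called. Per3 and Esr1 were under the filter. Of 15 steroid receptor and steroid handling genes 5 were higher and 4 lower, against 13% and 20.5% of all genes, including the glucocorticoid receptor Nr3c1 (−0.40) and the peroxisomal enzyme Hsd17b4 (0.33). Higher calls in that list numbered 3 without female knockout replicate 1, without male knockout replicate 1 or without male knockout replicate 3.

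Markers of other cells of the marrow were checked in the same libraries, where 20.5% of all genes were called lower. Neutrophil markers had 11 lower and 0 higher of 15 (median −0.57), and their summed level was 2499 to 3236 FPKM in female knockouts and 3891 to 4827 FPKM in male knockouts. Lower calls numbered 2 without female knockout replicate 2, 3 without male knockout replicate 1, 5 without male knockout replicate 3, 6 with quantile normalization and 3 with no filter on low values. Dendritic cell markers had 5 lower of 9 tested, with sums of 830 to 1013 FPKM in female knockouts and 1458 to 1556 FPKM in male knockouts. The sums include Bst2, which interferon also induces, so they do not stand for dendritic cells alone. Bst2 had 9775 to 12535 reads in female knockouts, where Fscn1 had 1814 to 2248 and Ccr7 had 880 to 1176. Ccl22, Ly75, Flt3 and Siglech were not called. Lower calls numbered 3 when any of the male knockout replicates or female knockout replicate 3 was left out. T and NK cell markers had 4 lower of 5 tested, at sums of 8.83 to 12.3 FPKM in female knockouts and 17.0 to 28.8 FPKM in male knockouts. The other 10 of the 15 listed were under the filter. Trac, a T cell receptor gene, was not called (−0.10, adjusted p = 0.685). Gzmb, called lower, rests on 6, 3 and 6 reads in female knockouts and 104, 62 and 45 reads in male knockouts. Mast cell and basophil markers had 3 lower of 7, at sums of 13.0 to 18.5 FPKM in female knockouts and 24.3 to 56.1 FPKM in male knockouts, with Cma1 and Mcpt4 at 0 in all libraries. Over the settings 1 to 4 of the mast cell and basophil markers were lower, the 1 being the only one left by a filter of 5 FPKM. That filter left 2 of the T and NK cell markers, both lower, and 3 or 4 of the 5 were lower in the other settings. Stem and progenitor markers had 2 lower of 7, and their sum of 133 to 190 FPKM in female knockouts and 538 to 672 FPKM in male knockouts was mostly Ly6a, which interferon also induces. With a filter of 5 FPKM 1 of the 2 progenitor markers left was lower. Of B cell markers 0 of 8 were called, and sums were 22.7 to 27.2 FPKM in female knockouts and 22.1 to 37.0 FPKM in male knockouts. Stromal and endothelial markers had 2 lower of 8, near the share of all genes, at sums of 12.6 to 25.6 FPKM in female knockouts and 29.5 to 32.5 FPKM in male knockouts. Only 1 was lower with assigned reads, with voom, with no filter, with a filter of 5 FPKM (of 2 left), and without female knockout replicate 2 or 3 or male knockout replicate 1 or 3. Erythroid and platelet markers had 1 higher of 6, the transferrin receptor gene Tfrc at 0.43. The other 5 were all below 0 and not called, and the median of the list was −0.50. Sums, which include Tfrc, were 424 to 475 FPKM in female knockouts and 421 to 529 FPKM in male knockouts. Without male knockout replicate 2, 3 of the 6 were called lower. Osteoclast, macrophage and neutrophil markers thus moved with sex beside the interferon, resorption and cell cycle genes, and their part in those differences was not tested.

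**Figure D4:**
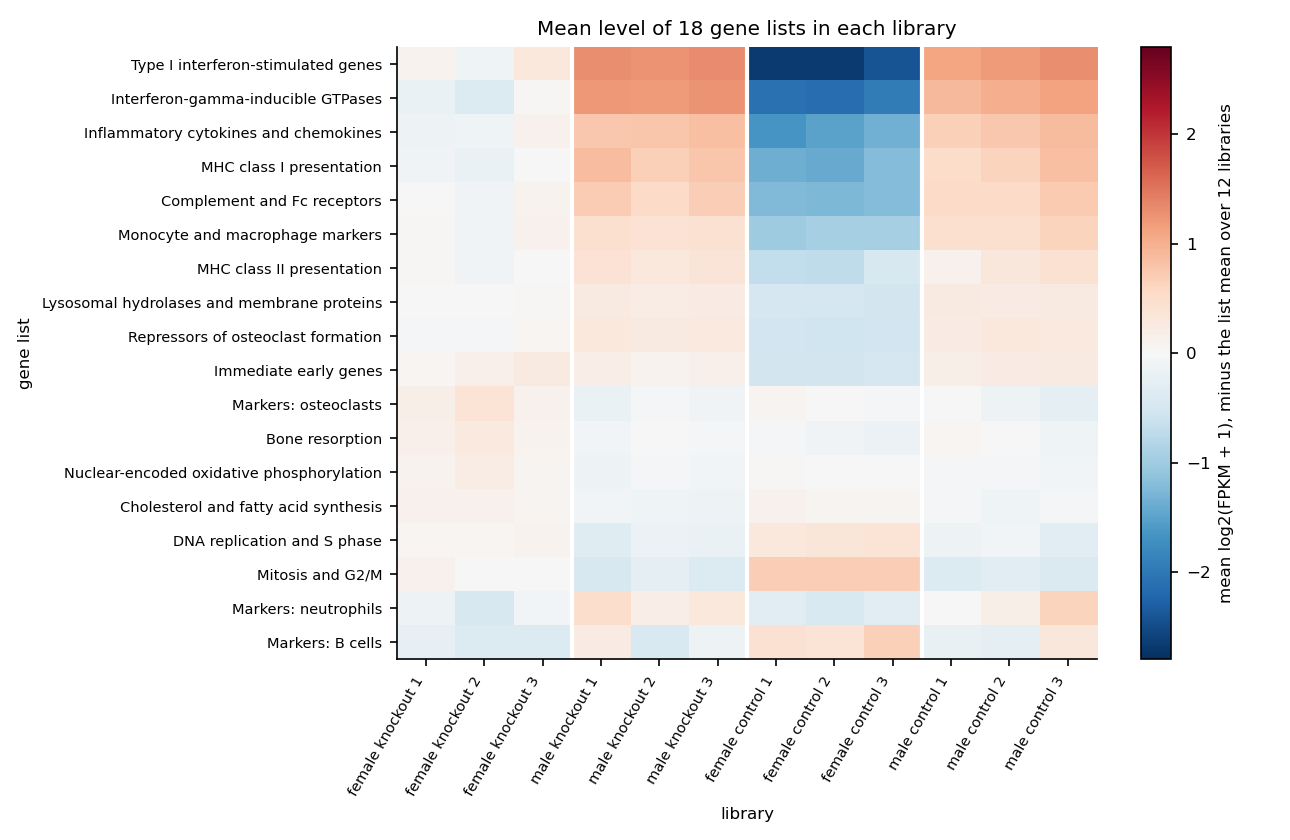
Colours give the mean log2(FPKM + 1) of 18 gene lists in each of the 12 libraries, minus the mean of the list over all 12. The interferon-stimulated list stood at −0.12 to 0.31 in female knockouts, 1.25 to 1.33 in male knockouts, −2.68 to −2.41 in female controls and 1.09 to 1.30 in male controls.

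Among noncoding genes 4 long noncoding RNAs had the largest falls. Gm11216 had 1.64, 2.06 and 2.06 FPKM in female knockouts and 14.9, 12.2 and 16.7 FPKM in male knockouts (log2 −2.41 ± 0.22, adjusted p = 2.34e-05). Gm13822 had 6.73, 6.14 and 6.32 FPKM in female knockouts and 21.1, 23.97 and 23.9 FPKM in male knockouts (log2 −1.69 ± 0.074, adjusted p = 3.24e-07). AW112010, known from inflamed macrophages, was at −1.83 and Gm46189 at −2.23. The rises were smaller, at 0.57 for 2810001G20Rik, 0.50 for 4833415N18Rik, 0.51 for Gm30934 and 0.50 for Gm48350, and each of these 4 calls was lost in at least 1 alternative setting. Long noncoding RNAs as a class had 10 higher (2.52%) and 73 lower (18.4%) of 397, against 13% higher and 20.5% lower over all genes. Calls were rarer at low levels, with 78 higher and 242 lower of the 2193 genes with a mean under 2 FPKM. The class was not compared with genes of matched level. The sources used here do not state the strand setting of the read counting, so RNAs that overlap another gene cannot be told apart from it. A copy of the U6 small nuclear RNA on chromosome 11 was listed at 0 in all 3 female knockouts and at 1.78, 1.24 and 1.20 FPKM in male knockouts. The male knockout values rest on only 3, 5 and 2 reads. Female controls had 1, 1 and 2 reads and male controls 1, 1 and 3, so no sex difference can be read from this gene. The gene is also one of many near-identical copies.

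The female minus male difference in control cultures was set beside that in knockouts, and the difference between them was tested in the same limma model. Control cultures had 7040 genes called between the sexes (60.3%), 3425 higher in females (29.3%) and 3615 lower (31%), and the SD of the difference over genes was 0.331 in knockouts and 0.695 in controls. Assigned reads were 0.936 to 0.948 of the FPKM denominator in female controls and 1.075 to 1.105 in male controls. The scaling thus differed between the sexes in controls too, and the split of control calls by direction was not examined under other scalings. Of the 2393 genes lower in female knockouts 1921 were also lower in female controls, and 1666 of those 1921 had the smaller difference in knockouts. Of the 1520 genes higher in female knockouts 1123 were also higher in female controls. Opposite calls were found for 70 genes higher in knockouts and lower in controls and for 65 genes the other way round. The difference between the genotypes was called at 4052 genes (34.7%), positive at 2112 (18.1%) and negative at 1940 (16.6%).

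Most of the large falls of female knockouts were larger in controls. Of the 214 genes at least 2-fold lower in knockouts 204 were also lower in controls, and 160 had a positive difference between genotypes that was called. Irf7 averaged 289 ± 46.6 FPKM in female knockouts and 628 ± 41.9 FPKM in male knockouts, and 14.0 ± 2.28 FPKM in female controls and 618 ± 53.7 FPKM in male controls (SD, n = 3 each). The 2 log2 differences were −1.13 in knockouts and −5.38 in controls, and they differed by 4.25 (adjusted p = 2.07e-07). All 40 interferon-stimulated genes had a called positive difference, with a median log2 difference between the sexes of −1.06 in knockouts and −3.32 in controls. Gm46189 was at −2.23 in knockouts and −2.29 in controls, and the difference between them was not called (adjusted p = 0.895). Its levels rested on 3, 5 and 2 reads in female controls and 15, 9 and 10 reads in female knockouts. Because log2(FPKM + 1) understates change at such levels, these values do not show that the 2 differences were alike. Nqo1 was at 1.41 in knockouts and 1.29 in controls, and the difference between them was not called either (adjusted p = 0.691).

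Some genes ran in opposite directions in the 2 genotypes. Egr1 was higher in female knockouts and lower in female controls, where it had 1.37, 1.41 and 1.92 FPKM in female controls and 11.8, 11.7 and 10.7 FPKM in male controls, a log2 difference of −2.28. Marco was at 1.09 in knockouts and −2.95 in controls, with a wide spread in male controls of 71.6 to 168 FPKM. Rnd3, a small GTPase, was at 0.36 in knockouts and −0.26 in controls, and Spryd7 at −0.63 in knockouts and 0.12 in controls. Assigned reads were 0.936 to 0.948 of the FPKM denominator in female controls and 1.075 to 1.105 in male controls. A control difference as small as that of Rnd3 therefore depends on the scaling, and it was not examined under other scalings. Mitosis genes kept their direction and were closer together in knockouts, with a median difference of 0.39 in knockouts and 1.07 in controls, and 24 of 25 had a called negative difference between genotypes. Osteoclast markers had 8 of 10 higher in female knockouts and 3 of 10 higher in female controls, and the difference between genotypes was called at 3 of the 10, including Mmp9 (adjusted p = 0.006) and Acp5 (adjusted p = 0.025).

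**Figure D5:**
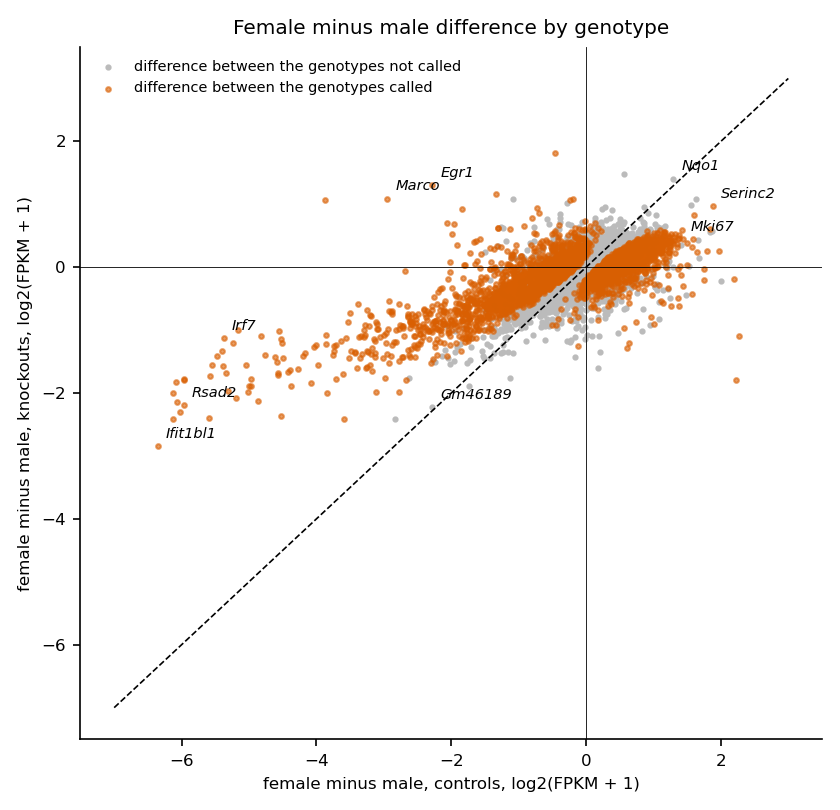
Each point is 1 autosomal gene, with the female minus male difference in knockouts on the y axis and in controls on the x axis, both in log2(FPKM + 1); the dashed line marks equal differences. Orange points are the 4052 genes whose difference between genotypes was called, and most genes far to the left lie above the line, so their fall was smaller in knockouts.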

How the data were processed

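RNA sequencing of 12 libraries was read from 1 table of the whole study. Its FPKM values (fragments per kilobase of gene length, scaled to library depth) were made and deposited by the authors, with HISAT2 2.0.5, featureCounts 1.5.0-p3 and mm10 per the submitters' processing notes. The sources used here state neither the strand setting nor the FPKM denominator, so genes that overlap or run antisense to each other cannot be separated. Every column was mapped by its name, and 1 line without a gene was left out. Multiplying FPKM by gene length and dividing by the value of 1 read gave reads that were whole to within 0.01 at 100% of values above 0. Gene coordinates of the table were not used, and promoters were read from the RefSeq table of build GRCm38.p6. The scan for promoter words was added after the data were examined; it first reported 1 word and was extended to 10 once the ranking had been seen. An earlier promoter search with remembered letters was dropped because no source used here gives them.

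The values log2(FPKM + 1) of 12102 genes with at least 1 FPKM in at least 3 of 12 libraries entered a model in limma 3.58.1 (R 4.3.3) with the 4 group means, a trend in the prior variance, two-sided tests and Benjamini-Hochberg adjustment over all 12102 genes. A gene was called at an adjusted p under 0.05, and every adjusted p in the text is from limma. Contrasts were female minus male in knockouts, the same in controls and the difference between both. The fit was tested on simulated data. Figures were drawn with Python 3.11.15 and matplotlib 3.10.9. The comparison, the 37 gene lists and the named genes were chosen with earlier results of these data known, so lists are described by counts and medians.

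Named genes were the 10 protein-coding genes of the largest rise and of the largest fall without overlap and with 1 sign in all batches, up to 5 each way by the smallest p of the difference between genotypes, up to 4 with opposite signs in the genotypes, up to 4 per list by the smallest p, up to 4 noncoding genes each way, genes at 0 in 1 sex, and a fixed set of clock, osteoclast and interferon genes. Other list members are named beside these as examples and were chosen after their values were seen.

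Within a knockout group replicate libraries had r = 0.9881 to 0.9916. A chi-square test of their reads gave 4.83 to 11.7 per degree of freedom, where sampling alone gives 1, so none was treated as a copy. The labels give same-numbered libraries the same batch, so the numbers pair them. Their deviations from the group means correlated at 0.046 to 0.066 over 3 pairs, and those of different-numbered libraries at −0.115 to 0.046 over 6 pairs. Alternatives were 2 other pseudocounts, 2 filters, 3 rescalings, voom, a fit of the compared libraries alone, the batch as a block, array weights and leaving out each library. The range of reads per library limits the precision of weakly expressed genes. Values of some list members are not reported here.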

Additional observations from a re-analysis of the deposited data

Results flagged for a closer look

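The female minus male difference differed between knockouts and controls, by limma's test of that difference, at 4052 autosomal genes. The log2 difference in knockouts minus that in controls was 4.25 for Irf7, 2.77 for Bst2, 2.1 for Ifih1 and 1.66 for Mov10, which are interferon-induced and had smaller falls in female knockouts. It was 3.58 for Egr1, 1.73 for Ier2 and 0.62 for Rnd3, which were higher in female knockouts and lower in female controls with FPKM as deposited. The small control difference of Rnd3 depends on the scaling, which differed between the sexes. The log2 difference in knockouts minus that in controls was −0.75 for Spryd7, which was lower in female knockouts and slightly higher in female controls. It was −0.99 for the proliferation marker Mki67, −0.93 for Malt1, −1.01 and −0.92 for the ribosome assembly genes Utp20 and Tsr1, and −1.54 for the membrane protein Emp2. These 5 were higher in females of both genotypes, by less in knockouts.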

How the results depend on the processing

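Of the 169 named genes called, 148 kept the call and its sign under all 17 alternative settings, and of the 23 not called 13 stayed so. Many named genes were chosen for a small p or a large change, which favours such survival. Among all 3913 calls, single settings kept between 71.6% (male knockout replicate 1 left out) and 98.5% (pseudocount of 5) with the same sign. That share was 71.6% to 84.9% when 1 library was left out and 78.6% with assigned reads as the denominator. Genes higher in female knockouts numbered 1520, and 2409 with quantile normalization, 3079 with assigned reads as the denominator, 3277 with voom and 990 to 1389 when 1 library was left out. Genes lower numbered 2393, 1556 with assigned reads and 1858 to 2162 with 1 library left out. At least 2-fold higher genes numbered 7, and 20 with a pseudocount of 0.1, 2 with a pseudocount of 5, 4 with a filter of 5 FPKM, 41 with voom and 6 to 11 with 1 library left out. At least 2-fold lower genes numbered 214, and 331 and 104 with those pseudocounts and 178 to 260 with 1 library left out. Counts for controls and for the difference between genotypes stayed within 1.5 times their values. With the batch as a replicate block 1522 genes were higher and 2346 lower, and the block ended the calls of Gm30934 and Gm48350 and gave one to Itga2b among the named genes. Ctsz, at −0.20, was at 0.004 with quantile normalization, and was also not called with assigned reads, with voom or with no filter on low values. The difference in Per2 level, −0.0116 FPKM, ran between −0.131 and 0.0616 FPKM as 1 library was left out, and was 0.0344, 0.0404 and 0.00261 FPKM without female replicate 1, male replicate 1 and male replicate 2. With no filter on low values Ctsk, Acp5, Mmp9 and Dcstamp were not called. The causes of these changes were not tested. Read depth limits what can be said of genes near 1 FPKM, where 14.6% were called.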
